A study of Mus musculus with 4 samples.

Results

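Matrix metalloproteinases are zinc-dependent proteases that cut collagens, other matrix proteins and many signalling proteins outside the cell, and tissue inhibitors of metalloproteinases, or TIMPs, bind and block their active sites. The RNA of 10 such genes is described here: Mmp2, Mmp3, Mmp7, Mmp8, Mmp9, Mmp10, Mmp12, Mmp13, Mmp14 and Timp1. They were chosen by name, with their difference between the genotypes already known. Values were analysed for 9 of the 10, out of 22422 genes in all. Mmp7, which encodes matrilysin, was not analysed here.

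Distal colon was taken from female Elf4fl/fl-Villin-Cre and wild-type mice, 6 weeks old, on day 5 of treatment with 2% dextran sulfate sodium (DSS), and total RNA was sequenced. Each genotype had 2 libraries, numbered 1 and 2. All mice received DSS, an agent that damages the lining of the colon and causes colitis, so no value shows what DSS itself did. In Elf4fl/fl-Villin-Cre mice the loxP-flanked Elf4 gene is the target of a Cre recombinase driven by the villin promoter, which is active in intestinal epithelium, while stromal and immune cells of the same tissue are outside the reach of that promoter. The labels give the strain as C57BL/8 for the Elf4fl/fl-Villin-Cre mice and C57BL/6 for the wild-type mice, whereas the series design gives C57BL/6 for all. The labels do not say which other alleles the wild-type mice carried, or that the libraries came from separate animals, so p-values measure only the spread between these libraries, which may be technical.

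Metalloproteinases are mostly made as inactive proenzymes, which other proteases such as plasmin activate by removing the propeptide. Inflamed gut makes them in fibroblasts, macrophages, neutrophils and epithelium, and their transcription is known to respond to interleukin 1, tumour necrosis factor and growth factors, in part through AP-1, a dimer of Fos and Jun proteins. By their roles, Mmp3 and Mmp10 are stromelysins, Mmp8 and Mmp13 collagenases, Mmp2 and Mmp9 gelatinases, Mmp12 an elastase of macrophages and Mmp14 a membrane-bound activator of Mmp2.

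Values are normalised reads, the authors' read counts per gene divided by 1 scaling factor per library. Depth was 16023926 and 16425954 whole reads for Elf4fl/fl-Villin-Cre colon, against 16134509 and 15885028 for wild-type colon. Across the 22050 genes with a mean of at least 1, limma called 1512 higher and 1897 lower in Elf4fl/fl-Villin-Cre colon (Benjamini-Hochberg adjusted p under 0.05), and the median log2 fold change was 0.11. Scaling to library totals moved that median by 0.30 and gave 4114 higher and 1194 lower calls, while scaling to equal medians moved it by -0.17 and gave 1083 and 2694. Elf4 had 897 and 758 normalised reads in Elf4fl/fl-Villin-Cre colon, against 1588 and 1938 in wild-type colon (log2 fold change -1.09 ± 0.16, SE; limma adjusted p = 0.0139). Markers of the labelled tissue were present, since all 12 epithelial markers searched had reads in every library. The median log2 fold change of these 12 markers was -1.39, and its part in the Elf4 difference was not tested.

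All 9 genes were higher in both Elf4fl/fl-Villin-Cre libraries than in either wild-type library. Their log2 fold changes, the Elf4fl/fl-Villin-Cre mean minus the wild-type mean of log2(value + 1), ran from 0.86 for Mmp2 to 5.64 for Mmp10, with a median of 3.47. Of the 9, limma called 9 higher and 0 lower, where 6.86% of all tested genes were called higher, and 9 had groups that did not overlap in that direction, where 35.0% of all tested genes did. Because the genes were chosen with this difference known, the counts describe them and test nothing, and their values follow without p-values. In whole tissue, fewer cells of a type and less RNA per cell cannot be told apart.

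The stromelysins were among the most abundant members in Elf4fl/fl-Villin-Cre colon. Mmp10, stromelysin 2 (ENSMUSG00000047562.3, chromosome 9, 7502352 to 7510240 in mm10), had 9331 and 18038 normalised reads in Elf4fl/fl-Villin-Cre colon, against 368 and 181 in wild-type colon. The lower Elf4fl/fl-Villin-Cre library stood 25.3-fold above the higher wild-type library. The means were 13685 ± 6157 and 275 ± 132 (SD, n = 2 each), with a log2 fold change of 5.64 ± 0.42 (SE). Mmp3, stromelysin 1, which cuts proteoglycans and fibronectin and activates other proenzymes (ENSMUSG00000043613.8, chromosome 9, 7445822 to 7455975), had 5610 and 15343 normalised reads in Elf4fl/fl-Villin-Cre colon, against 1038 and 565 in wild-type colon. The groups did not overlap, but the Elf4fl/fl-Villin-Cre libraries lay 2.73-fold apart. Its log2 fold change was 3.60 ± 0.50 (SE), and leaving out Elf4fl/fl-Villin-Cre replicate 1 or 2 gave 4.32 or 2.87. The transcripts of Mmp10 and Mmp3 shared 140 stretches of 50 bases, so a small part of their reads could have been split between the paralogs by the counting.

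The collagenases lay far apart in level, and both had high fold changes. Mmp13, collagenase 3, the main interstitial collagenase of rodents (ENSMUSG00000050578.10, chromosome 9, 7272514 to 7283331), had 7979 and 19194 normalised reads in Elf4fl/fl-Villin-Cre colon, against 431 and 251 in wild-type colon. Replicate 2 was the higher Elf4fl/fl-Villin-Cre library, as for Mmp3 and Mmp10, and the groups were 18.5-fold apart at their nearest. The log2 fold change was 5.23 ± 0.44 (SE), and leaving out Elf4fl/fl-Villin-Cre replicate 1 or 2 gave 5.86 or 4.60. Mmp8, the collagenase stored in neutrophil granules (ENSMUSG00000005800.3, chromosome 9, 7558456 to 7568485), had 244 and 140 normalised reads in Elf4fl/fl-Villin-Cre colon, against 9.26 and 4.21 in wild-type colon. Here the order of the Elf4fl/fl-Villin-Cre libraries was turned round, replicate 1 being the higher by 1.73-fold. The wild-type values rest on 9 and 4 whole reads, so the log2 fold change of 4.67 ± 0.47 (SE) rests on the fewest reads of the set, and with a pseudocount of 5 it was 4.05.

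**Figure D1:**
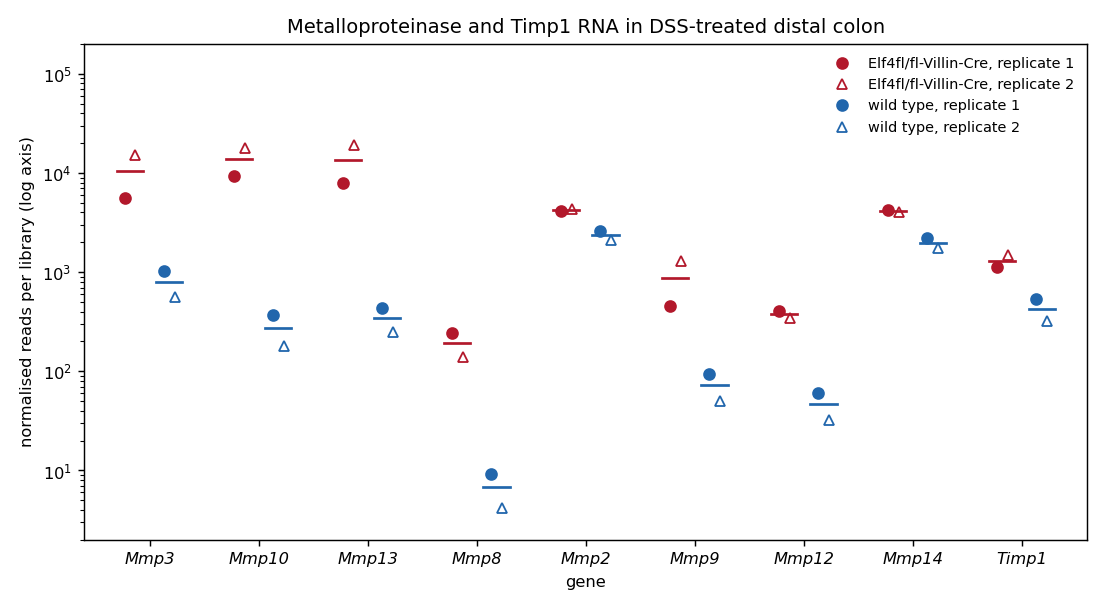
Normalised reads (log axis) of the 9 genes in each library; circles are replicate 1, open triangles replicate 2, red Elf4fl/fl-Villin-Cre, blue wild type, and bars the group means. Every red point lies above both blue points of its gene, from a ratio of means of 1.81 for Mmp2 to 49.8 for Mmp10.

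The gelatinases, which cut denatured collagen and basement membrane type IV collagen, differed in size of change. Mmp9, gelatinase B, a product of neutrophils and macrophages among others (ENSMUSG00000017737.2, chromosome 2, 164940780 to 164955850), had 460 and 1291 normalised reads in Elf4fl/fl-Villin-Cre colon, against 93.6 and 50.6 in wild-type colon. Its Elf4fl/fl-Villin-Cre libraries lay 2.81-fold apart, the widest replicate gap of the set. The log2 fold change was 3.47 ± 0.52 (SE), and leaving out Elf4fl/fl-Villin-Cre replicate 1 or 2 gave 4.21 or 2.72. Mmp2, gelatinase A, a product of fibroblasts (ENSMUSG00000031740.8, chromosome 8, 92827291 to 92853420), had 4181 and 4361 normalised reads in Elf4fl/fl-Villin-Cre colon, against 2589 and 2133 in wild-type colon. It had the smallest difference of the set, a log2 fold change of 0.86 ± 0.15 (SE), and the closest Elf4fl/fl-Villin-Cre replicates. The means were 4271 ± 127 and 2361 ± 322 (SD, n = 2 each).

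Mmp14, the membrane-bound metalloproteinase that activates proMmp2 at the cell surface (ENSMUSG00000000957.10, chromosome 14, 54431612 to 54445364), had 4219 and 4013 normalised reads in Elf4fl/fl-Villin-Cre colon, against 2197 and 1755 in wild-type colon, a log2 fold change of 1.07 ± 0.16 (SE). Mmp12, macrophage elastase (ENSMUSG00000049723.14, chromosome 9, 7344381 to 7369499), had 408 and 349 normalised reads in Elf4fl/fl-Villin-Cre colon, against 60.7 and 32.7 in wild-type colon. Its log2 fold change was 3.05 ± 0.32 (SE), and replicate 1 was the higher library in each genotype. The end of Mmp12 overlaps Mmp1b, on the opposite strand, over 1261 bases, and strandedness is not given in the sources used here, but Mmp1b held at most 5.85 normalised reads in a library.

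Timp1, the secreted inhibitor of most of these proteases and itself an induced gene of inflamed and wounded tissue (ENSMUSG00000001131.11, chromosome X, 20870166 to 20874735), was higher in the same libraries. It had 1117 and 1504 normalised reads in Elf4fl/fl-Villin-Cre colon, against 537 and 319 in wild-type colon, a log2 fold change of 1.64 ± 0.28 (SE). All of Timp1 lies within Syn1, a neuronal gene on the opposite strand, which had 65.2 and 76.9 normalised reads in Elf4fl/fl-Villin-Cre colon and 62.8 and 87.5 in wild-type colon.

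Set against Timp1 within the same library, the proteases separated into those whose level changed more than that of the inhibitor and those whose level changed less. Levels between genes were compared per kilobase of exon. The Mmp10 level per kilobase was 4.31 and 6.18 times that of Timp1 in Elf4fl/fl-Villin-Cre colon, against 0.354 and 0.293 times in wild-type colon. The ratio for Mmp3 was 2.48 and 5.03 in Elf4fl/fl-Villin-Cre colon, against 0.953 and 0.872 in wild-type colon, and that for Mmp13 was 2.37 and 4.24, against 0.267 and 0.261 in wild-type colon. These 3 proteases thus exceeded the inhibitor per kilobase in both Elf4fl/fl-Villin-Cre libraries and lay below it in both wild-type libraries. Mmp2 and Mmp14 went the other way. The Mmp2 level was 0.986 and 0.764 times that of Timp1 in Elf4fl/fl-Villin-Cre colon, against 1.27 and 1.76 times in wild-type colon, and the Mmp14 level was 0.563 and 0.398 times, against 0.609 and 0.819 times in wild-type colon. The ratios depend on the gene length used. Per kilobase of the longest transcript, mean Mmp14 was 610 and Timp1 485 in wild-type colon, against 1271 and 1484 in Elf4fl/fl-Villin-Cre colon. Summed per kilobase, the 8 proteases reached 10.9 and 16.9 times the Timp1 level in Elf4fl/fl-Villin-Cre colon, against 3.52 and 4.06 times in wild-type colon. RNA ratios do not give the balance of active enzyme to inhibitor protein.

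**Figure D2:**
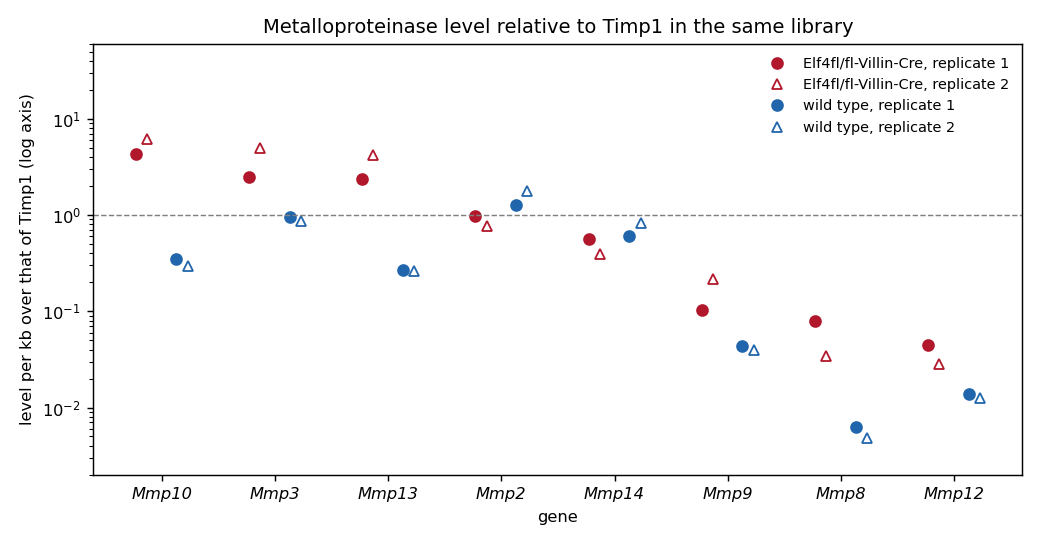
Level per kilobase of each protease divided by that of Timp1 in the same library (log axis), with red Elf4fl/fl-Villin-Cre, blue wild type, circles replicate 1 and open triangles replicate 2; the dashed line marks equal levels. Mmp10, Mmp3 and Mmp13 lie above the line in red and below it in blue, while the red points of Mmp2 and Mmp14 lie below their blue points.

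The order of the levels differed between the genotypes. In Elf4fl/fl-Villin-Cre colon the order of mean levels per kilobase was Mmp10 (7947 ± 3575), Mmp3 (5817 ± 3821), Mmp13 (5083 ± 2967), Timp1 (1476 ± 308), Mmp2 (1267 ± 37.8), Mmp14 (691 ± 24.4), Mmp9 (247 ± 166), Mmp8 (79.2 ± 30.0) and Mmp12 (52.3 ± 5.80; normalised reads per kilobase, SD, n = 2). The ranges of Mmp10 and Mmp3, of Mmp3 and Mmp13, and of Timp1 and Mmp2 overlapped across the 2 libraries. Within each library these pairs kept the printed order per kilobase of exon, most narrowly Timp1 and Mmp2 in replicate 1 (1258 and 1240). In wild-type colon the order was Mmp2 (700 ± 95.6), Timp1 (482 ± 173), Mmp3 (445 ± 186), Mmp14 (332 ± 52.3), Mmp10 (160 ± 76.8), Mmp13 (128 ± 47.7), Mmp9 (20.4 ± 8.60), Mmp12 (6.45 ± 2.74) and Mmp8 (2.78 ± 1.47). There the neighbours Timp1 and Mmp3, Mmp3 and Mmp14, and Mmp10 and Mmp13 overlapped in range, and each pair kept its order within both libraries. Mmp2 ranked at place 1 in wild-type colon and at place 5 in Elf4fl/fl-Villin-Cre colon. With the longest transcript as length in place of all exons, Mmp14 had 1271 in Elf4fl/fl-Villin-Cre colon and 610 in wild-type colon. Mmp12 had 84.6 and 10.4, which puts Mmp12 above Mmp8 in Elf4fl/fl-Villin-Cre colon. The places of Mmp14 and Mmp12 thus depend on which transcripts are made. By that length the Elf4fl/fl-Villin-Cre means of Timp1 and Mmp2 were 1484 and 1388, but in replicate 1 Mmp2 was the higher.

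**Figure D3:**
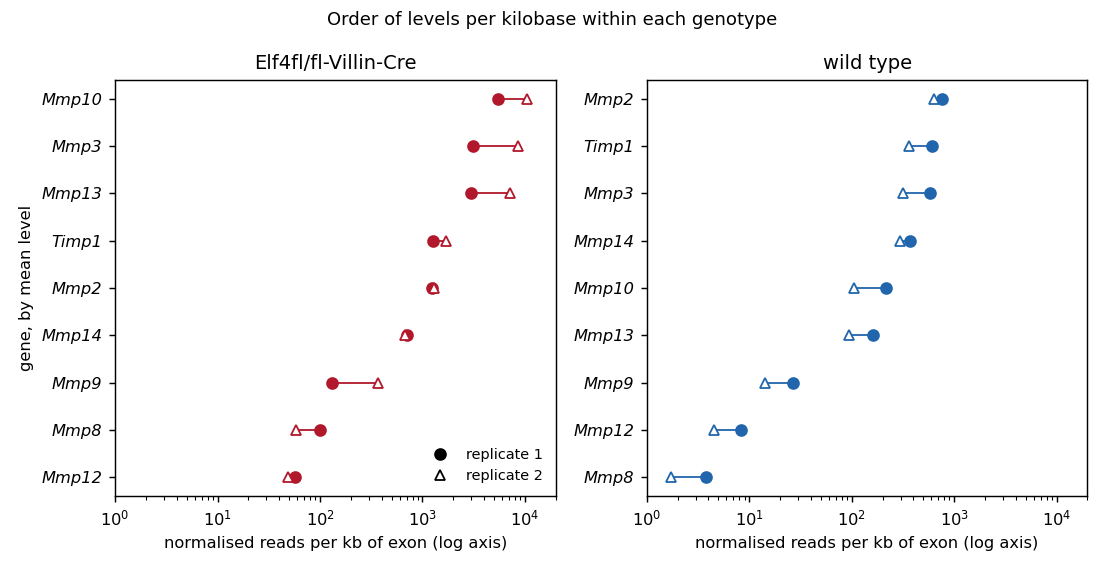
Normalised reads per kilobase of exon (log axis) for each gene, ordered by the mean within Elf4fl/fl-Villin-Cre (left) and wild-type colon (right); circles are replicate 1, open triangles replicate 2, joined by a line. Mmp10, Mmp3 and Mmp13 lead in Elf4fl/fl-Villin-Cre colon, while Mmp2 leads in wild-type colon.

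As a share of all reads, the 8 proteases took 0.249% and 0.457% in Elf4fl/fl-Villin-Cre colon (95% exact binomial intervals 0.246% to 0.251% and 0.453% to 0.460%). In the wild-type libraries they took 0.0409% and 0.0297% (0.0399% to 0.0419% and 0.0289% to 0.0306%). The intervals cover counting error only. Mmp13, Mmp3 and Mmp10 together supplied 70.7% and 83.8% of the protease reads in Elf4fl/fl-Villin-Cre colon, against 27.1% and 20.0% in wild-type colon, where Mmp2 and Mmp14 supplied most of the rest.

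The order of the replicates was the same for all members in wild-type colon, but not in Elf4fl/fl-Villin-Cre colon. In wild-type colon all 9 were higher in replicate 1 than in replicate 2, by 1.21-fold for Mmp2 to 2.20-fold for Mmp8, whereas 51.0% of all tested genes were higher in that replicate. In Elf4fl/fl-Villin-Cre colon 6 were higher in replicate 2, as were 54.2% of all tested genes, led by Mmp9 (2.81-fold), Mmp3 (2.73-fold), Mmp13 (2.41-fold) and Mmp10 (1.93-fold). The 3 that were higher in replicate 1 were Mmp8 (1.73-fold), Mmp12 (1.17-fold) and Mmp14 (1.05-fold). The summed level of 13 macrophage markers was higher in Elf4fl/fl-Villin-Cre replicate 1, at 36958 normalised reads in replicate 1 and 25005 in replicate 2. Lyz2, looked up after the values were seen, held 18002 and 9419 of these. The summed level of 12 neutrophil markers went the other way, at 16791 in replicate 1 and 17723 in replicate 2. Any link of these sums to the order of the members was not tested. Wild-type replicate 2 was the highest library for 7 keratin genes of stratified squamous epithelium, but not for Sbsn, the other gene of that list. The summed level of the 8 genes was 223 and 1017 in Elf4fl/fl-Villin-Cre colon, against 251 in wild-type replicate 1 and 6518 in wild-type replicate 2. Without wild-type replicate 2 the log2 fold changes of the 9 genes ran from 0.72 (Mmp2) to 5.13 (Mmp10). In edgeR without that library 5 of the 9 were called higher, where 2.60% of all tested genes were, and Mmp2, Mmp3, Mmp9 and Mmp14 were not. edgeR called all 9 with all libraries, where 9.88% of all tested genes were called higher, and without any other single library.

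Mmp13, Mmp12, Mmp3, Mmp10 and Mmp8 share a stretch of chromosome 9, in which 10 metalloproteinase genes lie within 427 kilobases (7272514 to 7699585 in mm10). From left to right, Mmp13, Mmp12, Mmp3, Mmp10 and Mmp8 had log2 fold changes of 5.23, 3.05, 3.60, 5.64 and 4.67, with a median of 4.67. The 4 genes elsewhere, Mmp2, Mmp9, Mmp14 and Timp1, had a median of 1.36. Of the other metalloproteinase genes in that stretch, Mmp27 had 15.5 and 22.6 normalised reads in Elf4fl/fl-Villin-Cre colon, against 12.3 and 9.48 in wild-type colon (log2 fold change 0.74 ± 0.44, SE; limma adjusted p = 0.305). Mmp1b, between Mmp12 and Mmp3, had 1.63 and 5.85 normalised reads, against 1.03 and 0 in wild-type colon, too few to show a difference.

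The nearest protein-coding genes with values on either side were taken by position, 3 on each side. Tmem123 had 3132 and 2452 normalised reads in Elf4fl/fl-Villin-Cre colon, against 1392 and 1355 in wild-type colon, a log2 fold change of 1.01 ± 0.16 (SE; limma adjusted p = 0.015). The dynein gene Dync2h1 and the growth factor gene Pdgfd rose by 0.86 and 0.67 (limma adjusted p = 0.0428 and 0.0489). Dcun1d5 and the apoptosis inhibitor genes Birc2 and Birc3 did not pass the threshold, at 0.25, 0.69 and 0.21 (limma adjusted p = 0.229, 0.0632 and 0.287). The 6 neighbours spanned 0.21 to 1.01, below the range of the 5 members of the cluster.

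**Figure D4:**
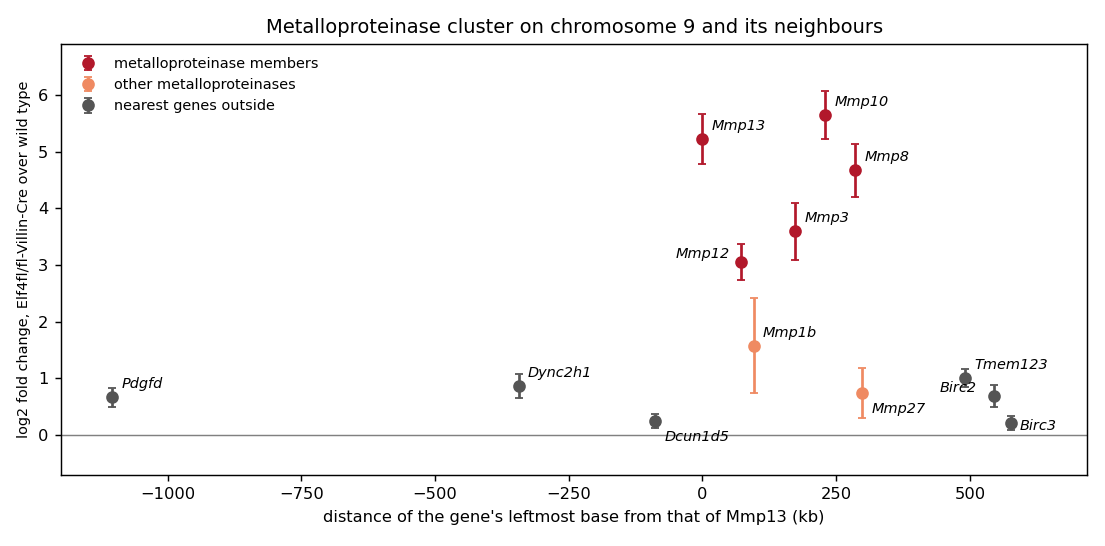
Log2 fold change, Elf4fl/fl-Villin-Cre over wild type (error bars, SE, 2 libraries each), against the distance in kilobases of each gene's leftmost base from that of Mmp13 on chromosome 9; red points are members, orange points other metalloproteinases and grey points the nearest genes outside. The 5 members of the cluster lie between 3.05 and 5.64, and the 6 nearest genes outside it between 0.21 and 1.01.

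The promoter sequences of the members are shown because the 5 clustered genes are close paralogs that were high in the same libraries. RefSeq sequence from 250 bases before to 50 bases after the annotated start (build GRCm38.p6) was at hand for 7 of the 9 genes, with 2 starts for Mmp12, and all lie on the plus strand. The motifs searched, on both strands, were the AP-1 motif TGANTCA, the TATA box TATAAA, the ETS motif in the forms AGGAAG and CCGGAAG, and the RUNX motif ACCACA. No pair of matches overlapped in these windows. AP-1 matches were found in 4 of the 7 genes, Mmp13, Mmp3, Mmp10 and Mmp12, starting 35, 46, 63 and 44 bases before the start, and in 8.97% of the 27025 mouse genes with a promoter window, a gene being counted where any of its starts had a match. Matches to the TATA letters were found in 5 of the 7, the same 4 and Mmp8, against 15.7% of all genes. They began 29, 16 and 7 bases before the start in Mmp10, Mmp13 and Mmp3. In Mmp8 the match began 3 bases before it, on the opposite strand, and in Mmp12 at position 5, past the start. The ETS form AGGAAG was found in 6 of the 7, against 38.4% of all genes, and the form CCGGAAG in 0 of the 7, against 9.93%. The RUNX motif was found in Mmp13 and Mmp14, against 18.9% of all genes. A match is a string of letters, not a shown binding site.

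The windows below run from 120 bases before to 20 bases after the start, 5′ to 3′, with AP-1 and TATA matches on either strand in capitals. Their coordinates are chr9:7502222-7502361 for Mmp10, chr9:7272394-7272533 for Mmp13, chr9:7445702-7445841 for Mmp3, chr9:7347254-7347393 for Mmp12, chr9:7558309-7558448 for Mmp8, chr14:54431478-54431617 for Mmp14 and chrX:20870046-20870185 for Timp1. The Mmp12 window is that of its downstream start. The 4 uppermost hold both motifs, Mmp8 a TATA match alone, and Mmp14 and Timp1 neither.
Mmp10: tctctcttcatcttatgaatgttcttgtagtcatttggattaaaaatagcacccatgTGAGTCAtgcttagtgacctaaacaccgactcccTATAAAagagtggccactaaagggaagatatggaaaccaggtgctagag
Mmp13: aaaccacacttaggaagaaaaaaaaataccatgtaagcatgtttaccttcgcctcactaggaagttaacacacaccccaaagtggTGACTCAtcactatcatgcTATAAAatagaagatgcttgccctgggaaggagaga
Mmp3: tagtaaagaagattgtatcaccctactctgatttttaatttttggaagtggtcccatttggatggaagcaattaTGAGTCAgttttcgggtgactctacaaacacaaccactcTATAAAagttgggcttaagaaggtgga
Mmp12: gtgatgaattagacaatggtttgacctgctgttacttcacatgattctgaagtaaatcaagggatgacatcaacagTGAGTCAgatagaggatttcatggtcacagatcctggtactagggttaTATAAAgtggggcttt
Mmp8: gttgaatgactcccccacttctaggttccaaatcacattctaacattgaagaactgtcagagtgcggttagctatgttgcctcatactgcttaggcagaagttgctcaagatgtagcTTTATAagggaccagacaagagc
Mmp14: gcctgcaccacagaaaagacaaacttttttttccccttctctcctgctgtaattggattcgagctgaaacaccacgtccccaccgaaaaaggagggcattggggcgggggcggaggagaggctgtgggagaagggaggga
Timp1: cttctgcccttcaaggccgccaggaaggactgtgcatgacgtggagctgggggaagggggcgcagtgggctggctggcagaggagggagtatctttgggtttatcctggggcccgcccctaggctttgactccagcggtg

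The lines show an AP-1 match upstream of the TATA match in Mmp10, Mmp13, Mmp3 and Mmp12. In Mmp3, Mmp10 and Mmp12 the matched letters were TGAGTCA and in Mmp13 they were TGACTCA, the same motif read from the other strand. Over the whole 300 bases, Mmp14 and Timp1 were 56.0% and 55.0% G and C, and the windows of the clustered genes 37.7% to 46.0%. The upstream start of Mmp12 held neither motif.

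Of 14 other metalloproteinase genes listed, 11 had values. Of these 1 rose and 0 fell, where 6.86% of all tested genes were called higher and 8.60% lower, so the count is near the background. The median log2 fold change of the 11 was 0.19. Mmp19, which cuts basement membrane proteins, had 718 and 788 normalised reads in Elf4fl/fl-Villin-Cre colon, against 245 and 248 in wild-type colon (log2 fold change 1.61 ± 0.14, SE; limma adjusted p = 0.00742). Looked up after the values were seen, Mmp15, a membrane-bound relative of Mmp14, had 1560 and 2515 normalised reads in Elf4fl/fl-Villin-Cre colon, against 3266 and 4399 in wild-type colon, and did not pass in limma (adjusted p = 0.0639). Mmp25, the membrane-bound metalloproteinase of neutrophils, had 62.7 and 52.7, against 22.6 and 7.38 in wild-type colon (limma adjusted p = 0.0546). edgeR called both, Mmp15 lower and Mmp25 higher (adjusted p = 0.046 and 0.0399).

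The limma counts of all lists below stand beside the same shares of all tested genes, 6.86% called higher and 8.60% lower. Library totals called 4114 of 22025 genes higher, and median scaling 1083 of 22052. Other inhibitors of metalloproteinases went less uniformly. Of 6, 2 rose and 0 fell, with a median log2 fold change of 0.44. Library totals gave 4 higher, median scaling 1, and edgeR 2, 1, 1 and 0 when Elf4fl/fl-Villin-Cre replicate 2 or 1 or wild-type replicate 1 or 2 was left out. Timp3, the matrix-bound inhibitor, had 2435 and 1753 normalised reads in Elf4fl/fl-Villin-Cre colon, against 1192 and 1124 in wild-type colon (log2 fold change 0.83 ± 0.18, SE; limma adjusted p = 0.0325). A2m, a protease trap of plasma, had 90.4 and 68.6, against 19.5 and 8.43 in wild-type colon (limma adjusted p = 0.021). In edgeR without wild-type replicate 2 neither was called (adjusted p = 0.118 for Timp3 and 0.0581 for A2m), and Timp3 also lost its call when wild-type replicate 1 or Elf4fl/fl-Villin-Cre replicate 1 was left out.

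Of the related ADAM proteases and meprins, 3 of 10 rose and 2 fell, with a median log2 fold change of 0.19. Adam8, a leukocyte sheddase, had 687 and 671 normalised reads in Elf4fl/fl-Villin-Cre colon, against 144 and 102 in wild-type colon (log2 fold change 2.48 ± 0.20, SE; limma adjusted p = 0.00737). Adam12 and Adam19 rose by 1.35 and 0.55 (limma adjusted p = 0.0262 and 0.0369), calls that edgeR made in 1 and 0 of the 4 fits without 1 library, Adam12 being called only without Elf4fl/fl-Villin-Cre replicate 2. Both meprins, metalloproteases of the colonocyte brush border, fell. Mep1b had 1194 and 1432 normalised reads in Elf4fl/fl-Villin-Cre colon, against 2462 and 2564 in wild-type colon (limma adjusted p = 0.0142). Mep1a had 121 and 339, against 1137 and 2297 in wild-type colon (log2 fold change -2.99; limma adjusted p = 0.0196), or -2.25 and -3.72 when Elf4fl/fl-Villin-Cre replicate 1 or 2 was left out. With wild-type replicate 2 left out, edgeR gave it an adjusted p of 0.0616.

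Proteases and receptors that act in proenzyme activation rose in 4 of 11 cases and 0 fell, with a median of 0.16. Elane and Ctsg, also listed, were not analysed here. Plau, which encodes urokinase, the plasminogen activator, had 2625 and 3897 normalised reads in Elf4fl/fl-Villin-Cre colon, against 614 and 396 in wild-type colon (log2 fold change 2.69 ± 0.27, SE; limma adjusted p = 0.0089). Its receptor gene Plaur had 1409 and 1456, against 696 and 433 in wild-type colon (limma adjusted p = 0.0175), and the proprotein convertase gene Pcsk5 271 and 288, against 94.7 and 65.3 in wild-type colon (limma adjusted p = 0.011). Inhibitors of serine proteases are given as single genes. Serpine2, which encodes protease nexin, had 2304 and 2377 normalised reads in Elf4fl/fl-Villin-Cre colon, against 406 and 417 in wild-type colon (log2 fold change 2.50 ± 0.12, SE; limma adjusted p = 0.00348). Slpi, an inhibitor of leukocyte elastase, had 9889 and 13313 normalised reads in Elf4fl/fl-Villin-Cre colon, against 4473 and 5356 in wild-type colon (limma adjusted p = 0.0167), but lost its edgeR call when either wild-type library was left out (highest adjusted p = 0.0575).

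Matrix genes, whose products include the substrates of these proteases, rose in 10 of 18 cases and 0 fell, with a median log2 fold change of 0.79. The count was 16 under library totals and 3 to 10 in edgeR with 1 library left out, 3 being the count that lacked wild-type replicate 2. Spp1, which encodes osteopontin, had 244 and 171 normalised reads in Elf4fl/fl-Villin-Cre colon, against 22.6 and 19.0 in wild-type colon (log2 fold change 3.24 ± 0.29, SE; limma adjusted p = 0.00743). Tnc, tenascin C, a matrix protein of wounds, had 10353 and 10985, against 3613 and 3343 in wild-type colon (limma adjusted p = 0.00742). Lamb1, a laminin chain of basement membranes, had 6620 and 6113, against 2595 and 2411 in wild-type colon (limma adjusted p = 0.0089). Sorted by function after the values were seen, the 4 fibrillar collagen genes of the list lay between 0.38 and 0.89 and the 7 basement membrane genes between 0.48 and 1.35 on the log2 scale.

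**Figure D5:**
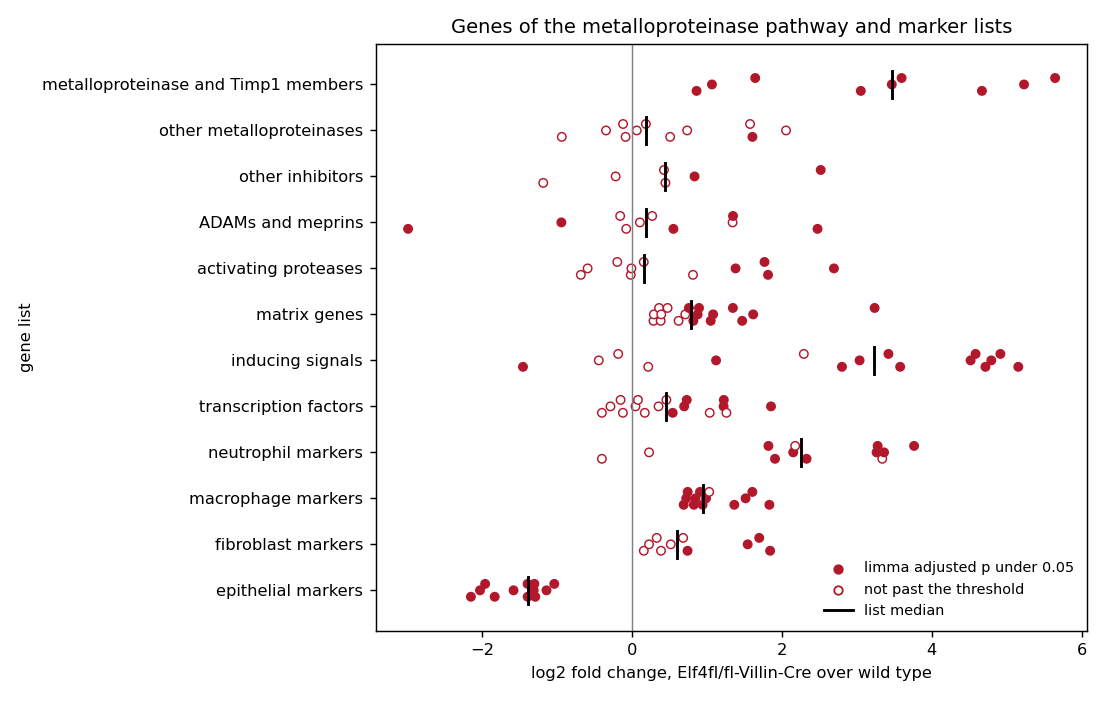
Log2 fold change, Elf4fl/fl-Villin-Cre over wild type, of each tested gene in the lists named at the left; filled points passed limma's adjusted p of 0.05, open points did not, and black bars are list medians. The members have a median of 3.47, the other metalloproteinases one of 0.19 and the inducing signals one of 3.23.

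Signals known to induce metalloproteinases were mostly higher. Of 16, 11 rose and 1 fell, with a median log2 fold change of 3.23. Il17a had 0 reads in both wild-type libraries. Its log2 fold change of 4.91 and its lower bound of 4.25, from a floor of 3 reads over the group, both exceed that median. Setting Il17a to its bound therefore could not move the median. Ptgs2, the inducible cyclooxygenase, had 9327 and 8253 normalised reads in Elf4fl/fl-Villin-Cre colon, against 325 and 185 in wild-type colon (limma adjusted p = 0.00401). Inhba, an activin subunit, had 2700 and 3329, against 120 and 106 in wild-type colon (limma adjusted p = 0.00114), and Il1a 318 and 358, against 30.9 and 24.2 in wild-type colon (limma adjusted p = 0.00636). Tnf, looked up after the values were seen, did not pass (log2 fold change -0.18, limma adjusted p = 0.797). It had 336 and 298 normalised reads in Elf4fl/fl-Villin-Cre colon, against 225 and 573 in wild-type colon. The EGF receptor ligand gene Tgfa fell by 1.45 (limma adjusted p = 0.0242), a call lost in edgeR when wild-type replicate 2 was left out (adjusted p = 0.077).

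Transcription factors known to act on metalloproteinase promoters rose in 6 of 17 cases and 0 fell, with a median log2 fold change of 0.46. The count was 10 under library totals, 3 with median scaling, and 2, 3, 5 and 1 in edgeR with Elf4fl/fl-Villin-Cre replicate 1 or 2 or wild-type replicate 1 or 2 left out. Cebpb had 1915 and 1930 normalised reads in Elf4fl/fl-Villin-Cre colon, against 680 and 414 in wild-type colon (log2 fold change 1.85 ± 0.24, SE; limma adjusted p = 0.0108). Runx1 and Ets1 rose by 0.73 and 1.22 (limma adjusted p = 0.0226 and 0.0251); Runx1 was called in 0 of the 4 edgeR fits without 1 library, and Ets1 not without wild-type replicate 2 (adjusted p = 0.0983). Sorted out after the values were seen, the 8 AP-1 genes of the list (Fos, Fosb, Fosl1, Fosl2, Jun, Junb, Jund and Atf3) lay between -0.40 and 1.26 on the log2 scale. With all libraries they had 0 calls in limma or edgeR. Of the 4 at an unadjusted limma p under 0.05, Fosb, Fosl1 and Junb were higher and Jund was lower. Among all 22050 tested genes, 3687 were higher and 3395 lower at that p. Fosl1 came nearest to a call (limma adjusted p = 0.0597, edgeR adjusted p = 0.0526). RNA levels do not show AP-1 activity, which is regulated on the protein.

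Markers of the cell types that make these proteases moved in the same libraries, and their part in the members' difference was not tested. The 13 macrophage markers summed to 36958 and 25005 normalised reads in Elf4fl/fl-Villin-Cre colon, against 15058 and 12705 in wild-type colon. Lyz2 held 18002 and 9419 of these, against 5064 and 4094 in wild-type colon. Of the 13 markers, 12 rose and 0 fell, with a median log2 fold change of 0.94. The count was 6 with median scaling and 4 to 13 in edgeR without 1 library, namely 4 or 7 when wild-type replicate 2 or 1 was left out, and 5 when Elf4fl/fl-Villin-Cre replicate 1 was. Cd14, Cd163 and Itgam rose by 1.37, 1.61 and 1.83 (limma adjusted p = 0.0089, 0.00986 and 0.0115). Of 12 neutrophil markers with values, 8 rose and 0 fell, with a median of 2.25 and Clec4d, Csf3r and Trem1 at 3.36, 2.15 and 2.33 (limma adjusted p = 0.00737, 0.00737 and 0.00767). Their summed levels were 16791 and 17723 normalised reads in Elf4fl/fl-Villin-Cre colon, against 14716 and 14424 in wild-type colon, most of it in Ly6g, looked up after the values were seen (9105 and 10787, against 12663 and 13520 in wild-type colon). The granule gene Camp was at 0 in wild-type replicate 1 and Ngp in wild-type replicate 2, and Mpo was not analysed here.

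Fibroblast markers rose in 4 of 10 cases and 0 fell, with a median of 0.60. Their summed levels were 39546 and 40343 normalised reads in Elf4fl/fl-Villin-Cre colon, against 17383 and 15178 in wild-type colon. Dcn alone held 22309 and 23695 of these, against 6624 and 6200 in wild-type colon. Pdpn, Dcn and Pdgfrb rose by 1.70, 1.84 and 1.54 (limma adjusted p = 0.00636, 0.00742 and 0.0105). All 12 epithelial markers fell, by a median of 1.39 on the log2 scale, with summed levels of 101745 and 127816 normalised reads in Elf4fl/fl-Villin-Cre colon, against 309278 and 373195 in wild-type colon. Vil1, Cdx1 and Krt19 fell by 1.58, 1.83 and 2.15 (limma adjusted p = 0.00942, 0.00961 and 0.0111). Erythroid markers, which show blood cells, rose in 4 of 6 cases, with summed levels of 2426 and 2817 against 244 and 697 in wild-type colon, and Slc4a1 at 0 in wild-type replicate 1. Their median was 2.61, or 1.85 to 3.40 without 1 library, lowest without wild-type replicate 1 and highest without wild-type replicate 2. No library was without reads of the macrophage, fibroblast or epithelial markers.

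The 5 genes whose pattern over the 4 libraries was nearest to the mean pattern of the members, among 10530 well-measured genes with a symbol, were Stc1, Tnfrsf9, Ccl2, Il1b and S100a9. Likeness was the root mean square distance between centred log2 values, from 0.14 for Stc1 to 0.21 for S100a9, while the members' own distances from their mean ran from 0.28 for Mmp12 to 1.21 for Mmp2 and Mmp10. Stc1, which encodes stanniocalcin 1, had 494 and 709 normalised reads in Elf4fl/fl-Villin-Cre colon, against 74.1 and 36.9 in wild-type colon. Il1b, a cytokine that induces several metalloproteinases, had 3992 and 4110, against 661 and 368 in wild-type colon. Ccl2, a chemokine for monocytes, had 1778 and 1732, against 245 and 133 in wild-type colon. The 4 libraries are too few for more than a description.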

How the data were processed

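Total RNA of DSS-treated distal colon was sequenced in 2 Elf4fl/fl-Villin-Cre and 2 wild-type libraries, grouped by the genotype label. The deposited table holds a normalised signal per gene and library. Divided by the worth of 1 read, 100% of values came out whole (tolerance 0.01), so the deposited signal is the authors' read count over 1 factor per library. The submitters' processing notes name mm10. The aligner, the counter and its strand setting are not given in the sources used. Symbols came from GENCODE mouse release 21 (22376 of 22422 identifiers matched), and promoter sequences from RefSeq GRCm38.p6.

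The main test was limma 3.58.1 (run in R 4.3.3) with a variance trend on log2(value + 1), over genes with a mean of at least 1, adjusted by Benjamini-Hochberg (2 residual and 4.06 prior degrees of freedom). Its recovery of known fold changes was checked on simulated counts. Their spread was a set value, not one estimated from these libraries, so the check does not show how often calls here are wrong. Alternatives were edgeR 4.0.16 (quasi-likelihood, TMM) and DESeq2 1.42.0 on recovered reads, other scalings, pseudocounts and filters, and fits without each library. Members and lists were chosen with earlier results of these data known. Some genes that the naming rule takes are not reported. Named genes are the members, Elf4, up to 3 genes per list and direction by smallest p, and the 5 nearest in pattern.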

Additional observations from a re-analysis of the deposited data

How the results depend on the processing

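All 9 members kept their direction in every alternative, and all 9 were called higher in each that used all 4 libraries. Library totals gave 4114 genes called higher and 1194 lower, so 77.5% of calls were higher, against 44.4% as reported and 28.7% with median scaling. limma with 1 library left out called 0 genes of any kind in each of its 4 fits, so 0 members and 0 list genes, while 3729 to 6189 genes, all 9 members among them, had an unadjusted p under 0.05. edgeR with 1 library left out called 476 to 1563 genes higher, 809 to 2191 lower, and 5 to 9 members higher. In the 8 lists of proteases, inhibitors, matrix genes, inducing signals and transcription factors, it called 22 to 37 genes higher and 3 to 4 lower. The marker lists are not part of those counts. The counts of genes, members and genes of the 8 lists called higher were lowest in the fit that lacked wild-type replicate 2. edgeR gave 844 genes higher when Elf4fl/fl-Villin-Cre replicate 1 was left out. In each such fit the lone library is assumed to vary like the other genotype's pair.

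Replicate numbers marked no stated pairing. The log2 differences of replicate 1 from replicate 2 in the 2 genotypes correlated at 0.104 across genes. With the replicate block limma called 2066 genes higher and 2445 lower, and 9 members. Depth limits Mmp8 in wild-type colon and Mmp1b, which rest on a handful of reads.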

Other observations

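Markers of other cell types of the colon wall were measured too. Of 8 endothelial markers, 2 rose and 0 fell, with a median log2 fold change of 0.52 and summed levels of 4603 and 4006 normalised reads in Elf4fl/fl-Villin-Cre colon, against 3259 and 2456 in wild-type colon. Emcn and Pecam1 rose by 1.49 and 0.71 (limma adjusted p = 0.0164 and 0.0398), and edgeR called neither without wild-type replicate 2 (adjusted p = 0.0667 and 0.12), nor Pecam1 without Elf4fl/fl-Villin-Cre replicate 1. Of 8 smooth muscle markers, Des alone passed and fell by 0.93 (limma adjusted p = 0.0382), a call that edgeR made only without Elf4fl/fl-Villin-Cre replicate 2 among the 4 fits without 1 library. Median scaling gave 3 lower calls in that list and library totals 0. Its median log2 fold change was -0.48, with summed levels of 74584 and 108365 in Elf4fl/fl-Villin-Cre colon, against 150401 and 116274 in wild-type colon.

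Among Paneth cell genes, Itln1, which encodes an intelectin, had 24.4 and 65.2 normalised reads in Elf4fl/fl-Villin-Cre colon, against 677 and 387 in wild-type colon (log2 fold change -3.64; limma adjusted p = 0.0118), and leaving out Elf4fl/fl-Villin-Cre replicate 1 or 2 gave -2.95 or -4.33. It is also made by goblet cells. Lyz1, which encodes the lysozyme of Paneth cells, had 115 and 62.7 normalised reads in Elf4fl/fl-Villin-Cre colon, against 79.2 and 32.7 in wild-type colon, and did not pass (log2 fold change 0.73; limma adjusted p = 0.367). Defa17 was at 0 in every library, and Defa24 and Defa30 were at 0 in both Elf4fl/fl-Villin-Cre libraries and at no more than 7.20 in wild-type colon. Of the 8 squamous epithelium genes, Sbsn rose by 1.36 (limma adjusted p = 0.021), a call lost in edgeR when either wild-type library was left out (highest adjusted p = 0.0729). The other 7 had log2 fold changes of -3.51 to -0.37, and the list median was -1.38. With all libraries limma and edgeR each called 0 of them lower, 0 having an unadjusted limma p under 0.05, while the replicate block gave 3 lower calls, as did edgeR with Elf4fl/fl-Villin-Cre replicate 2 or wild-type replicate 1 left out.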
